A study of Homo sapiens with 40 samples.

Results

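Transcript levels of 5 Schlafen genes, SLFN5, SLFN11, SLFN12, SLFN12L and SLFN13, were compared across 40 RNA-seq libraries of 786-0 cells. These genes were chosen by name from the 60664 genes of the count table, and all 5 were among the 22527 that passed the filter on low counts. A further gene of the same cluster, SLFN14, had 0 to 2 counts in a library and was not tested. 786-0 is a cell line of clear cell renal cell carcinoma. It was used in a form labelled as a knockout of SETD2, the histone H3 methyltransferase of transcribed genes (KO), and in a form with SETD2 intact (WT). Both forms received the same treatments: the combination of 100 nM DAC and 10 nM BMN, 100 nM DAC, or 10 nM BMN, each for 5, 16 or 26 days. Control cells of each form were sampled at day 0. These 20 groups had 2 libraries each. DAC is decitabine, a cytidine analogue that depletes DNA methyltransferases once it is built into DNA, and BMN is BMN673 (talazoparib), which traps PARP enzymes on DNA. Untreated cells of later days were not analysed here, so every comparison with control carries time in culture along with the drug. Each genotype was 1 labelled line, and the labels say neither whether it was a single clone nor whether replicates were separate cultures. The p-values below therefore measure the spread between these libraries, which may be technical.

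Schlafen genes encode proteins that act on nucleic acids, and several of them are induced by type I interferon. SLFN11 is recruited to stressed replication forks through the single-strand binding protein RPA, blocks further replication there and makes cells sensitive to PARP inhibitors and other DNA-damaging drugs. Methylation of its promoter is a described way in which tumour cells silence it. SLFN5 is an interferon-stimulated nuclear protein that restrains transcription of some viral and cellular genes. SLFN12 and SLFN13 cleave transfer RNA, and SLFN12 is held in an active complex with the phosphodiesterase PDE3A by certain small molecules.

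The 5 genes lie within a single cluster on chromosome 17 of GRCh38. SLFN5 (ENSG00000166750) is on the plus strand at 35243071 to 35273655. The other 4 are on the minus strand, SLFN11 (ENSG00000172716) at 35350305 to 35373701, SLFN12 (ENSG00000172123) at 35410922 to 35433283, SLFN13 (ENSG00000154760) at 35435096 to 35448837 and SLFN12L (ENSG00000205045) at 35464249 to 35487857. Because DAC lowers methylation at CG dinucleotides, the CG content of the promoters is shown. RefSeq's promoter table for GRCh38.p14 matched 3 of the 5 genes, and for 2 of them its start lay near that of the counted gene, 80 bases away for SLFN11 and 109 bases away for SLFN12. The 250 bases before these starts, on the minus strand at chr17:35373622-35373871 for SLFN11 and chr17:35433175-35433424 for SLFN12, read 5′ to 3′ as follows, with each CG in capitals.
SLFN11: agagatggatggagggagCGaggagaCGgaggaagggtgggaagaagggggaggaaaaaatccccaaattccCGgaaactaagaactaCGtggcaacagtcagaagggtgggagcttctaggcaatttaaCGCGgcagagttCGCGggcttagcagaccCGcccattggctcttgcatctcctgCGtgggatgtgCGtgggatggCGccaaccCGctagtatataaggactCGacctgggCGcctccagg
SLFN12: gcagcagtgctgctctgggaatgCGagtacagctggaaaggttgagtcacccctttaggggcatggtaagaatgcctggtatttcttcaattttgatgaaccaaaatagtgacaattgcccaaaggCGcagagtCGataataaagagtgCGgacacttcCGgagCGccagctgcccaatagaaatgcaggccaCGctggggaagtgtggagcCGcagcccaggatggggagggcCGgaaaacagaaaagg
The SLFN11 window held 15 CG and the SLFN12 window 9, where the median over 35116 promoters of this length was 11. Fewer CG than in SLFN11 were found in 57.1% of those promoters, and fewer than in SLFN12 in 45.9%. Both windows were also searched on both strands for the core of the interferon-stimulated response element (a pair of GAAA copies with NN between them), the gamma-activated site bound by STAT factors (TTCNNNGAA) and the core bound by ETS factors (CCGGAA). Neither window held the first, which 3.02% of promoters hold. The SLFN11 window held 1 gamma-activated site, TTCCCGGAA, at position -182 from the transcript start, and 6.57% of promoters hold this motif. An ETS core overlapped it at position -179. The SLFN12 window held 2 ETS cores, at positions -94 and -17, and 14.5% of promoters hold at least 1.

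Libraries held 17833960 to 22631101 counts. SETD2 itself did not separate the lines at the level of its transcript, at 127 ± 20.3 CPM in KO controls and 139 ± 13.6 CPM in WT controls (SD, n = 2 each; log2 -0.13 ± 0.07, adjusted p = 0.198). CPM are counts scaled to a common library size, and log2 fold changes are given with their SE and the Benjamini-Hochberg adjusted p of edgeR's quasi-likelihood test. Of the markers of the line, PAX8 ran from 221 to 479 CPM, VIM from 3002 to 5320 CPM and EPAS1 from 119 to 527 CPM over the group means. CA9, a target of hypoxia signalling, was only at 0 to 2.47 CPM. The 5 blood cell markers together reached 0.0518 to 1.16 CPM in a library and HBB was at 0 in all 40. The 3 endothelial markers reached 3.09 CPM at most, in WT cells on day 26 of the combination. The replicates of WT control differed more than those of any other group, with a chi-square of 19.8 per gene against 1.66 in the closest pair. Where a call rests on 1 library, the value without it is given.

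SLFN11 was the leading Schlafen transcript of the untreated cells of both lines. It kept that place in every KO group but lost it to SLFN5 in 3 WT groups treated with DAC. Levels of different genes were compared as CPM per kb of exon. Control cells had 26.6 CPM per kb over the 5 genes in KO and 39.3 CPM per kb in WT. SLFN11 made up 59.8% of that sum in KO controls and 64.9% in WT controls, and SLFN5 15.6% in KO controls and 18.3% in WT controls. In WT cells SLFN5 made up 51.5% of the sum at day 16 of the combination, where SLFN11 made up 28.0%, 40.2% at day 26 of the combination, where SLFN11 made up 37.3%, and 42.0% at day 16 of DAC, where SLFN11 made up 36.8%. KO cells at day 16 of the combination had near-equal shares, 34.8% for SLFN11 and 32.9% for SLFN5. The sum over the family reached 55.2 CPM per kb in WT cells at day 16 of the combination, while in KO cells it was between 22.8 and 29.3 CPM per kb in all 10 groups. SLFN12 followed as the third gene in both controls, at 3.92 CPM per kb in KO controls and 6.0 CPM per kb in WT controls. SLFN12L was near the limit of detection, at 0.23 CPM per kb or less in every group.

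**Figure D1:**
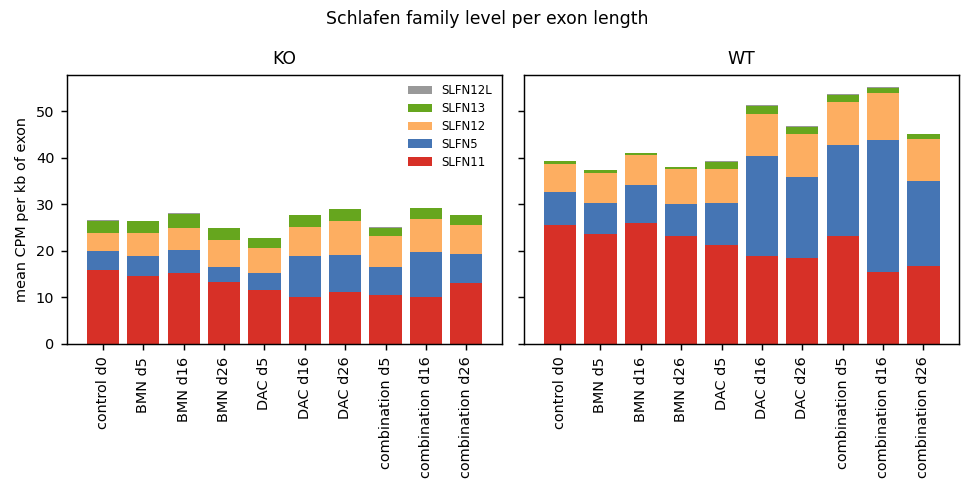
Mean CPM per kb of exon in each of the 20 groups, with KO on the left and WT on the right; each bar stacks the 5 genes and stands for 2 libraries. Under DAC and the combination the SLFN11 part is smaller than in control in both lines. The SLFN5 part is larger than in control, save at day 5 of DAC in KO. The sum reaches 55.2 CPM per kb in WT, while KO sums lie between 22.8 and 29.3 CPM per kb.

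In bulk samples, fewer cells with a transcript and less of it per cell cannot be told apart. Stretches shared between genes are a further limit, because reads of uncertain placement were left out of the counts. Of the 50-base windows of SLFN11 transcripts, 9.69% also occur in SLFN13 transcripts. Of the SLFN13 windows, 7.0% also occur in other genes, mostly SLFN11. The shares were 1.32% for SLFN12, 1.75% for SLFN12L and 0.196% for SLFN5. SLFN12L also overlaps gene models on its own strand that had 0 to 10 counts in a library.

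Before any treatment the KO line had less SLFN11, SLFN5 and SLFN12 than the WT line and more SLFN13. SLFN11 stood at 101 and 89.3 CPM in KO controls, against 153 and 152 CPM in WT controls. SLFN5 stood at 48.9 and 39.7 CPM in KO controls, against 84.6 and 68.9 CPM in WT controls. SLFN12 was at 15.4 and 13.3 CPM in KO controls, against 23.1 and 21.0 CPM in WT controls. For none of these 3 genes did the libraries of the lines overlap, and the differences were of like size, log2 -0.68 ± 0.07 for SLFN11 (adjusted p = 3e-10), -0.79 ± 0.08 for SLFN5 (adjusted p = 2.89e-09) and -0.62 ± 0.11 for SLFN12 (adjusted p = 2.91e-05). SLFN13 went the other way, with 25.1 and 22.8 CPM in KO controls against 4.59 and 6.01 CPM in WT controls, a 4.52-fold difference (log2 2.18 ± 0.13, adjusted p = 2.73e-15). SLFN12L had 1 and 3 counts in KO controls against 2 and 4 in WT controls and did not pass (log2 -0.47 ± 0.99, adjusted p = 0.809). So 4 of the 5 genes passed, 1 higher and 3 lower in KO, where 27.2% of all tested genes passed, 13.4% higher and 13.9% lower.

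Against the day 0 controls, SLFN11 was lower and SLFN5 and SLFN12 were higher under DAC, with or without BMN, in both lines from day 16 on. Drug and time in culture cannot be told apart in these comparisons. SLFN12 in KO was also higher than control at day 26 of BMN alone (log2 0.59). SLFN11, the gene of replication block, had 101 and 89.3 CPM in KO controls and, under DAC, 70.8 and 67.0 CPM on day 5, 62.7 and 58.5 CPM on day 16 and 64.0 and 68.8 CPM on day 26. Under the combination the KO libraries had 62.7 and 63.1 CPM on day 5, 60.6 and 61.2 CPM on day 16 and 78.5 and 79.4 CPM on day 26. All 12 of these treated KO libraries lay below both KO controls. The log2 change with DAC was -0.46 ± 0.07 at day 5 (adjusted p = 9.61e-07), -0.65 ± 0.07 at day 16 (adjusted p = 1.09e-09) and -0.52 ± 0.07 at day 26 (adjusted p = 1.09e-07). With the combination it was -0.59 ± 0.07, -0.64 ± 0.07 and -0.27 ± 0.07 on the 3 days, and the last did not pass without KO control replicate 1 (log2 -0.18, adjusted p = 0.0804).

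In WT cells SLFN11 started higher and also fell. WT controls had 153 and 152 CPM, and DAC gave 124 and 130 CPM on day 5, 115 and 111 CPM on day 16 and 111 and 108 CPM on day 26. The combination gave 145 and 133 CPM on day 5, 89.2 and 95.8 CPM on day 16 and 99.3 and 102 CPM on day 26. Every library treated with DAC, alone or in the combination, lay below both WT controls. The change with DAC was log2 -0.27 ± 0.06 at day 5 (adjusted p = 0.00166), -0.43 ± 0.06 at day 16 (adjusted p = 1.9e-06) and -0.47 ± 0.06 at day 26 (adjusted p = 4.74e-07). The day 5 value did not pass when only the 4 libraries compared were fitted (log2 -0.25, adjusted p = 0.164). With the combination the day 5 change of -0.14 ± 0.06 did not pass (adjusted p = 0.0953; without WT combination day 5 replicate 1 it was -0.20, adjusted p = 0.0442), while -0.72 ± 0.07 at day 16 (adjusted p = 3.15e-11) and -0.60 ± 0.07 at day 26 (adjusted p = 2.72e-09) passed. The deepest fall of SLFN11 in either line, at day 16 of the combination in WT, was thus 1.65-fold.

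**Figure D2:**
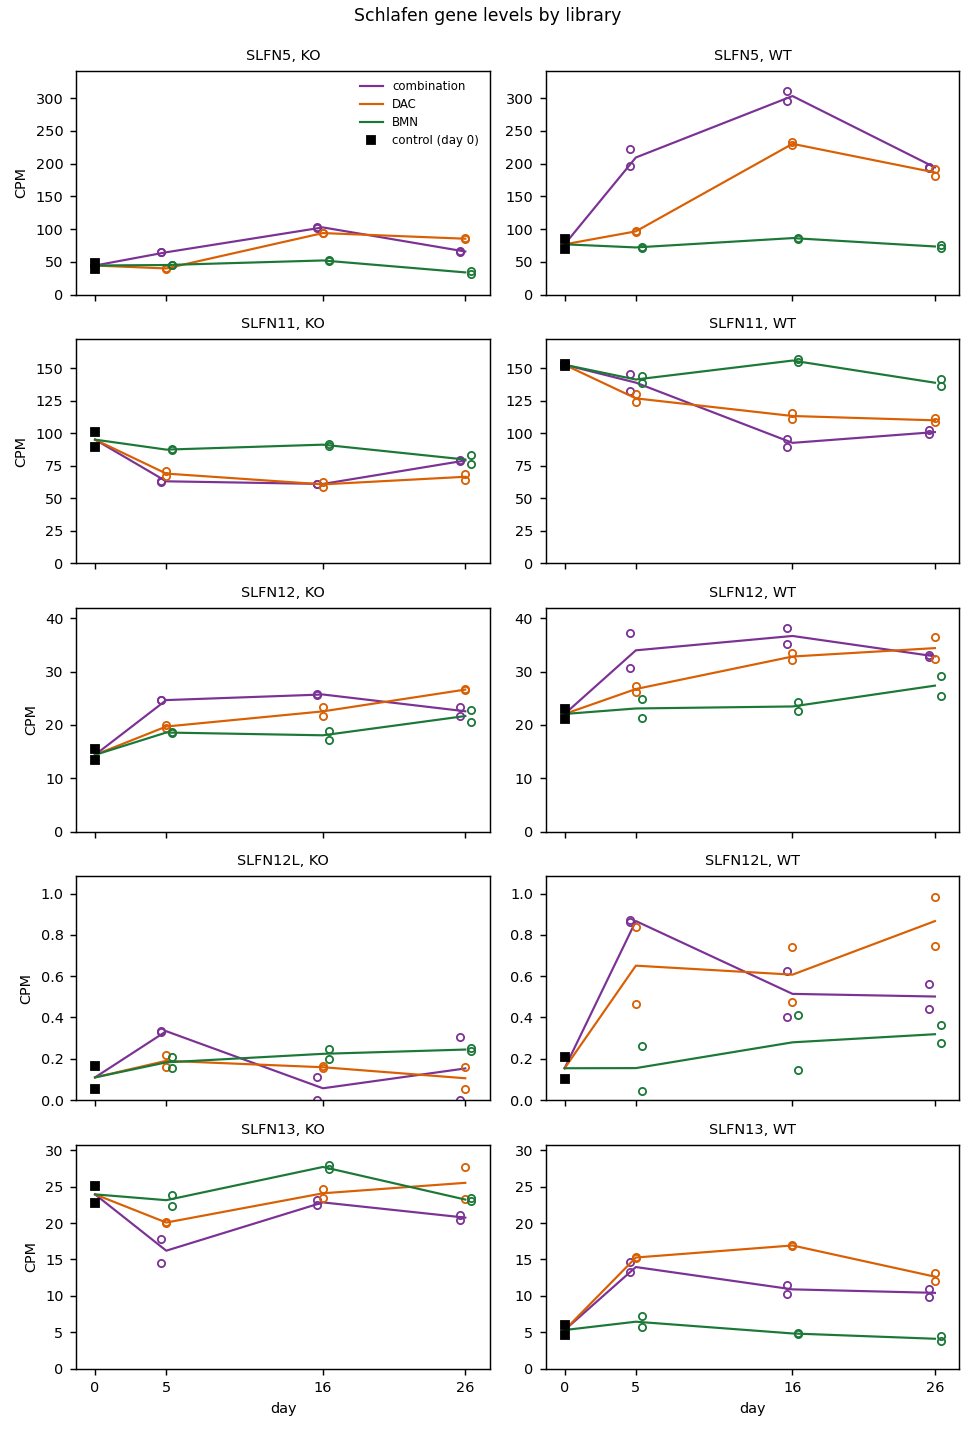
CPM by day for each of the 5 genes, KO on the left and WT on the right; open circles are single libraries (2 a group), squares the day 0 controls, and lines join group means. SLFN11 lies below its controls under DAC and the combination in both lines, and SLFN13 lies above its controls under both in the WT panel.

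SLFN5, an interferon-stimulated member, showed the largest rise in CPM. In KO cells it had 48.9 and 39.7 CPM in control and, under DAC, 38.6 and 41.1 CPM on day 5, 93.6 and 94.2 CPM on day 16 and 84.5 and 86.1 CPM on day 26. Under the combination it had 64.4 and 64.7 CPM on day 5, 102 and 103 CPM on day 16 and 65.0 and 66.4 CPM on day 26. DAC alone gave no passing change at day 5 in KO (log2 -0.15 ± 0.09, adjusted p = 0.176; -0.30, adjusted p = 0.0174, without KO control replicate 2), then a rise of 1.08 ± 0.08 at day 16 and 0.94 ± 0.08 at day 26. The combination raised it already at day 5, by log2 0.54 ± 0.08, then by 1.21 ± 0.08 and 0.57 ± 0.08.

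WT cells reached higher SLFN5 levels. They had 84.6 and 68.9 CPM in control and, under DAC, 95.3 and 97.8 CPM on day 5, 233 and 228 CPM on day 16 and 193 and 181 CPM on day 26. Under the combination they had 222 and 197 CPM on day 5, 296 and 311 CPM on day 16 and 195 and 193 CPM on day 26. The largest change was 3.95-fold, at day 16 of the combination (log2 1.98 ± 0.08, adjusted p = 2.3e-20). DAC gave log2 0.33 ± 0.08 at day 5 (adjusted p = 0.00183), which did not pass without WT control replicate 2 (log2 0.19, adjusted p = 0.117) or when only the 4 libraries were fitted (adjusted p = 0.112). At day 16 DAC gave 1.59 ± 0.08 and at day 26 1.28 ± 0.08, and the combination gave 1.45 ± 0.08 at day 5 and 1.34 ± 0.08 at day 26.

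SLFN12, which cleaves transfer RNA, rose under DAC and the combination on every day in both lines. KO cells had 15.4 and 13.3 CPM in control and 19.5 and 19.9, 21.7 and 23.4, and 26.7 and 26.6 CPM at days 5, 16 and 26 of DAC. WT cells had 23.1 and 21.0 CPM in control and 26.1 and 27.3, 32.1 and 33.6, and 36.5 and 32.3 CPM on the same days. All 12 DAC libraries lay above the controls of their line, by log2 0.45 ± 0.11, 0.65 ± 0.11 and 0.89 ± 0.11 in KO and 0.28 ± 0.10, 0.57 ± 0.10 and 0.64 ± 0.10 in WT. Under the combination KO libraries ran from 21.7 to 25.8 CPM and WT libraries from 30.7 to 38.2 CPM, all above the controls of their line, with changes of 0.65 to 0.84 in KO and 0.58 to 0.73 in WT. The smallest of these rises, at day 5 of DAC in WT, did not pass without WT control replicate 2 (log2 0.21, adjusted p = 0.236) or without either DAC library (0.31 and 0.24, adjusted p = 0.0727 and 0.191).

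SLFN13, a relative of SLFN12 that cleaves transfer and ribosomal RNA, rose in WT cells. WT controls had 4.59 and 6.01 CPM, and DAC gave 15.3 and 15.2 CPM on day 5, 16.8 and 17 CPM on day 16 and 12.1 and 13.2 CPM on day 26. The combination gave 13.3 and 14.6, 11.5 and 10.2, and 9.90 and 10.9 CPM on those days. The 12 treated libraries all lay above both controls, by log2 1.53 ± 0.13, 1.68 ± 0.13 and 1.26 ± 0.13 with DAC and 1.40 ± 0.14, 1.04 ± 0.14 and 0.98 ± 0.14 with the combination. The largest was 3.20-fold, at day 16 of DAC (adjusted p = 1.66e-12). KO cells, which had 25.1 and 22.8 CPM in control, gave no passing change with DAC, at 20.1 and 20.1, 24.7 and 23.5, and 23.4 and 27.7 CPM (log2 -0.25 ± 0.11, 0.01 ± 0.11 and 0.09 ± 0.11; adjusted p = 0.0785, 0.969 and 0.522). With the combination SLFN13 fell at day 5 in KO, to 17.9 and 14.6 CPM (log2 -0.56 ± 0.12, adjusted p = 0.000118), and changes of -0.07 ± 0.11 and -0.21 ± 0.11 on the later days did not pass. All WT libraries under DAC had less SLFN13 than untreated KO cells.

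SLFN12L, the least described of the 5 genes, rose under DAC in WT cells but stayed rare. WT controls had 2 and 4 counts, and DAC gave 9 and 18 counts at day 5, 16 and 10 at day 16 and 16 and 22 at day 26. The combination gave 16 and 17, 12 and 8, and 12 and 10 counts on those days. No treated library of these groups had as few counts as a control, and log2 2.05 ± 0.72, 1.94 ± 0.73 and 2.45 ± 0.69 with DAC passed (adjusted p = 0.031, 0.0369 and 0.00632). These calls rest on few reads, and none of the 3 passed without WT control replicate 1 (log2 1.63, 1.52 and 2.03; adjusted p = 0.182, 0.195 and 0.0667). The day 5 call was also lost without WT control replicate 2 or WT DAC day 5 replicate 2 (log2 2.63 and 1.56), and the day 16 call without WT control replicate 2 or WT DAC day 16 replicate 1 (log2 2.52 and 1.59). The day 5 and day 16 calls were also not made by DESeq2 (adjusted p = 0.0525 and 0.0604). The combination passed at day 5 (log2 2.45 ± 0.70, adjusted p = 0.00525; 2.03, adjusted p = 0.0669, without WT control replicate 1) and did not pass at days 16 and 26 (log2 1.70 ± 0.75 and 1.67 ± 0.74). KO libraries stayed at 0 to 6 counts in every group, and no KO change passed.

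BMN alone gave few passing changes in WT and more in KO. In WT cells none of the 5 genes passed at day 5 or day 16, where 0.186% and 0.684% of all tested genes passed, and SLFN12 alone passed at day 26 (23.0% of all genes), at 29.3 and 25.5 CPM against 23.1 and 21.0 CPM in control (log2 0.31 ± 0.10, adjusted p = 0.0258). The share of all genes at day 16 itself turned on single libraries, with 154 genes passing in the whole set, 3593 without WT control replicate 1, and 7 to 11 without any other 1 of the 4 libraries. The SLFN12 call of day 26 was lost without WT control replicate 2 (log2 0.25) or WT BMN day 26 replicate 1 (0.21). SLFN11, the gene tied to the response to PARP inhibitors, was at 144 and 139, 155 and 157, and 142 and 136 CPM at days 5, 16 and 26 in WT, with log2 changes of -0.11 ± 0.06, 0.03 ± 0.06 and -0.14 ± 0.06 that did not pass, though DESeq2 called the last (-0.17, adjusted p = 0.0361). At day 5 no Schlafen gene had an unadjusted p below 0.05, at day 16 SLFN5 alone did, and DESeq2, which gave SLFN12L no adjusted p there, called none on either day. SLFN5 at day 16 passed without WT control replicate 1 (0.32, adjusted p = 0.0128), as did SLFN13 at day 26 (-0.55, adjusted p = 0.0231). In KO cells SLFN12 rose on all 3 days, to 18.7 and 18.5, 18.9 and 17.2, and 20.6 and 22.8 CPM (log2 0.37 ± 0.11, 0.33 ± 0.11 and 0.59 ± 0.11). The first and the second of these did not pass without KO control replicate 2 (0.27 and 0.23). They were also lost without either BMN library at day 5 (0.36 and 0.38) and without BMN replicate 1 at day 16 (0.26). The third lay between 0.49 and 0.70 without each library in turn.

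On day 26 of BMN in KO cells, SLFN5 stood at 31.9 and 35.6 CPM and SLFN11 at 76.3 and 83.1 CPM. Both were below control (log2 -0.39 ± 0.09 and -0.25 ± 0.07), but neither passed without KO control replicate 1 (-0.23, adjusted p = 0.0713, for SLFN5 and -0.16, adjusted p = 0.113, for SLFN11), nor did SLFN11 without BMN replicate 1 (-0.19, adjusted p = 0.0872). SLFN5 was 0.23 ± 0.09 above control at day 16 of BMN in KO (adjusted p = 0.0431), a call lost without KO control replicate 2 or either BMN library (0.09, 0.19 and 0.27) and at 0.39 without KO control replicate 1. SLFN13 had no passing change under BMN in either line, at 22.4 to 28.0 CPM in KO and 3.75 to 7.19 CPM in WT.

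Counted over the 5 genes, 2, 3 and 3 passed with DAC against control in KO at days 5, 16 and 26, where 35.4%, 37.7% and 47.2% of all tested genes passed. All 5 passed on each day with DAC in WT, where 27.8%, 33.5% and 31.9% of all genes passed. Of the WT calls of day 5, those on SLFN5, SLFN12 and SLFN12L were each lost in fits that left out a library. The SLFN11 call of that day was lost when only the compared libraries were fitted. The SLFN12L calls of days 16 and 26 were lost without WT control replicate 1. With the combination 4, 3 and 3 passed in KO (49.2%, 42.6% and 34.7% of all genes) and 4, 4 and 4 in WT (39.5%, 43.0% and 41.1%). With BMN 1, 2 and 3 passed in KO, where 11.7%, 25.5% and 33.1% of all genes passed. The median log2 change of the 5 genes with DAC at day 16 was 1.59 in WT, against 0.03 over all genes. In KO the median with DAC was -0.15, 0.51 and 0.09 at days 5, 16 and 26, against 0.04, 0.04 and 0.11 over all genes. SLFN12L gave the KO median of day 16, on 3 and 3 counts against 1 and 3 in control, and its change did not pass. At day 26 of DAC in KO the median of all genes was itself 0.11, and against that SLFN13 (0.09) stood near the middle.

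**Figure D3:**
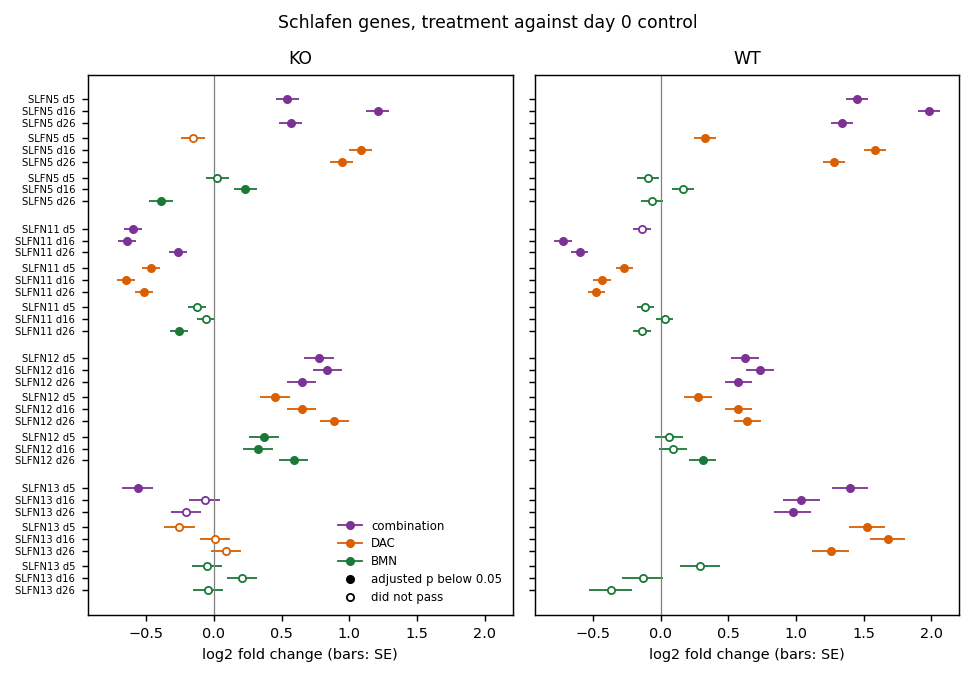
Log2 fold change against the day 0 control of the same line for 4 genes on days 5, 16 and 26, with SE; KO on the left, WT on the right, filled points passed at an adjusted p below 0.05. SLFN12L, with its larger SE, is left out. SLFN5 and SLFN12 lie right of 0 under DAC and the combination in both lines from day 16, and SLFN13 does so in WT.

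Treatments sampled on the same day were compared with each other, which does not involve the day 0 controls. Against BMN, DAC gave lower SLFN11 in KO on all 3 days (log2 -0.34 ± 0.07, -0.59 ± 0.07 and -0.26 ± 0.07) and in WT on days 16 and 26 (-0.46 ± 0.06 and -0.34 ± 0.07). The KO value of day 26 did not pass without KO BMN day 26 replicate 2 (-0.20, adjusted p = 0.0598). The WT value of day 5, -0.16 ± 0.06, did not pass (adjusted p = 0.0823), and that of day 26 did not pass when only its 4 libraries were fitted (adjusted p = 0.0751). SLFN5 was higher with DAC than with BMN by log2 0.85 ± 0.08 and 1.34 ± 0.09 on days 16 and 26 in KO, and by 0.42 ± 0.08, 1.42 ± 0.08 and 1.35 ± 0.08 on days 5, 16 and 26 in WT. In KO at day 5 it was -0.18 ± 0.09 and did not pass. SLFN13 was higher with DAC in WT on all 3 days, by 1.24 ± 0.13, 1.81 ± 0.13 and 1.62 ± 0.14, and did not pass on any day in KO (-0.21 ± 0.11, -0.20 ± 0.11 and 0.14 ± 0.11).

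SLFN12 was higher with DAC than with BMN on days 16 and 26, by 0.32 ± 0.11 and 0.30 ± 0.10 in KO and 0.48 ± 0.10 and 0.33 ± 0.10 in WT. Of these, only the WT value of day 16 passed without each library in turn. The KO call of day 16 was lost without DAC replicate 2 or BMN replicate 2 (0.26 and 0.26), that of day 26 without either DAC library or BMN replicate 1 (0.29, 0.30 and 0.22), and that of WT at day 26 without BMN replicate 2 or DAC replicate 1 (0.23 and 0.24). At day 5 SLFN12 was 0.08 ± 0.11 higher in KO and 0.21 ± 0.10 higher in WT, and neither passed. SLFN12L passed in WT at day 5 (9 and 18 counts with DAC, 5 and 1 with BMN; log2 2.10 ± 0.72, adjusted p = 0.0313), was at 3.67 without BMN replicate 1 and did not pass without BMN replicate 2 (1.29) or DAC replicate 2 (1.61). In all, 1, 3 and 3 of the 5 genes passed in KO on the 3 days (28.8%, 39.2% and 40.3% of all genes) and 3, 4 and 4 in WT (23.1%, 31.7% and 34.2%).

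Adding BMN to DAC raised SLFN5 early. At day 5 the combination had 64.4 and 64.7 CPM against 38.6 and 41.1 CPM with DAC in KO, and 222 and 197 CPM against 95.3 and 97.8 CPM with DAC in WT. These were rises of log2 0.70 ± 0.09 in KO (adjusted p = 1.38e-07) and 1.12 ± 0.08 in WT (adjusted p = 7.48e-13). At day 16 the difference was 0.40 ± 0.08 in WT (adjusted p = 0.000293) and 0.13 ± 0.08 in KO, which did not pass. By day 26 the combination had less SLFN5 than DAC in KO, 65.0 and 66.4 CPM against 84.5 and 86.1 CPM (log2 -0.38 ± 0.08, adjusted p = 0.000747), and 0.06 ± 0.08 in WT did not pass.

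SLFN11 with the combination was higher than with DAC in KO at day 26 (78.5 and 79.4 CPM against 64.0 and 68.8 CPM; log2 0.25 ± 0.07, adjusted p = 0.0059) and lower in WT at day 16 (89.2 and 95.8 CPM against 115 and 111 CPM; log2 -0.29 ± 0.07, adjusted p = 0.0017). The first did not pass without KO DAC day 26 replicate 1 (0.20, adjusted p = 0.105), nor the second without WT combination day 16 replicate 1 (-0.24, adjusted p = 0.0623). On the other days SLFN11 differed by -0.13 ± 0.07 and 0.01 ± 0.07 in KO and by 0.13 ± 0.06 and -0.12 ± 0.07 in WT, and none passed. SLFN13 was lower with the combination in WT at day 16 (log2 -0.64 ± 0.12, adjusted p = 2e-04). A lower SLFN13 in KO at day 26 (-0.30 ± 0.11, adjusted p = 0.0477) was lost without either combination library (-0.28 and -0.32) or DAC replicate 2 (-0.17), and at day 5 in KO -0.31 ± 0.12 passed only without combination replicate 1 (-0.46, adjusted p = 0.0246). SLFN12 was higher at day 5 by 0.32 ± 0.10 in KO and 0.35 ± 0.10 in WT, but in KO the call was lost without any 1 of its 4 libraries (0.31 to 0.34, lowest adjusted p = 0.0738). In WT it was lost without either DAC library (0.31 and 0.38) or combination replicate 2 (0.20). Over the 5 genes 2, 0 and 3 passed in KO (22.3%, 16.3% and 23.9% of all genes) and 2, 3 and 0 in WT (12.3%, 12.2% and 12.2%). Where none passed, DESeq2 called none of the 4 genes to which it gave an adjusted p, and SLFN13 at day 26 in WT alone had an unadjusted p below 0.05.

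**Figure D4:**
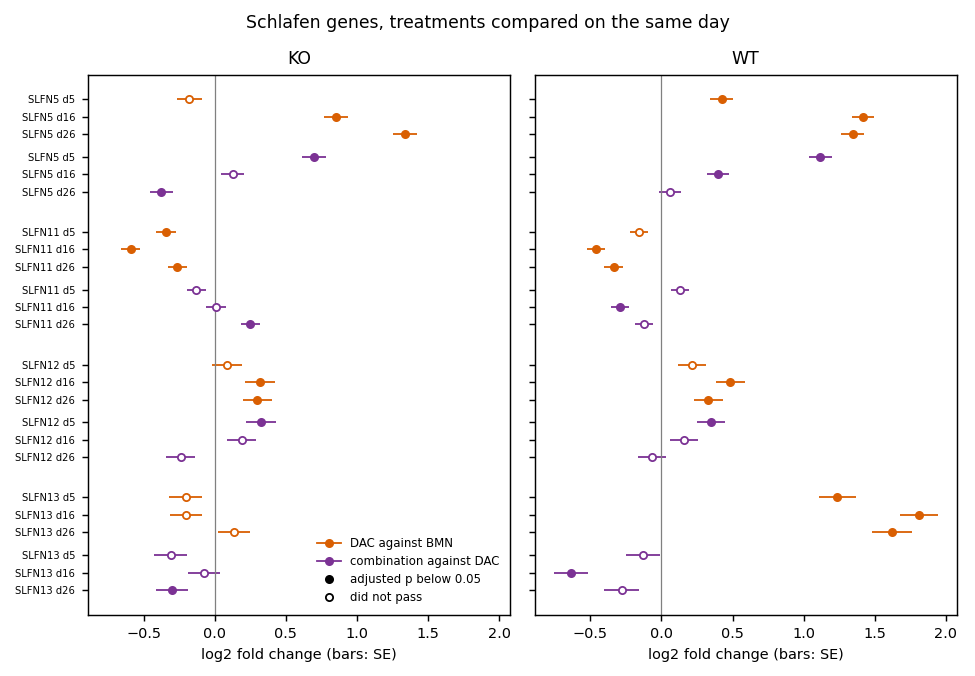
Log2 fold change between treatments of the same day for 4 genes on days 5, 16 and 26, with SE; KO on the left, WT on the right, filled points passed at an adjusted p below 0.05. DAC against BMN puts SLFN11 left of 0 and SLFN5 right of 0 on days 16 and 26 in both lines, and the combination against DAC puts SLFN5 right of 0 at day 5 in both.

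The genes also moved during treatment. Between day 5 and day 26 of DAC, SLFN5 rose by log2 1.1 ± 0.08 in KO and 0.95 ± 0.08 in WT, and SLFN12 by 0.43 ± 0.10 in KO and 0.36 ± 0.10 in WT. The WT value of SLFN12 did not pass without DAC day 5 replicate 1 (0.33) or DAC day 26 replicate 1 (0.27). SLFN11 fell by 0.21 ± 0.06 in WT, which did not pass without DAC day 5 replicate 2 (-0.17, adjusted p = 0.157) or DAC day 26 replicate 1 (-0.23, adjusted p = 0.0529), and -0.05 ± 0.07 in KO did not pass. Under the combination SLFN11 went in opposite directions, log2 0.33 ± 0.07 in KO (adjusted p = 0.00017) and -0.46 ± 0.07 in WT (adjusted p = 8.17e-07). No test of that difference between lines was made. The 5 genes gave 3 calls with DAC in KO (35.9% of all genes), 3 in WT (21.7%), 2 with the combination in KO (42.7%), 2 in WT (35.9%), 1 with BMN in KO (18.3%) and 1 in WT (22.0%).

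With BMN in KO, SLFN5 was lower on day 26 than on day 5 by log2 -0.42 ± 0.09 and passed without each library in turn. The calls on SLFN13 each rested on single libraries. SLFN13 rose in KO by 0.35 ± 0.11 with DAC and by 0.36 ± 0.12 with the combination. The first was lost without either day 5 library or DAC day 26 replicate 2 (0.34, 0.35 and 0.22), and the second without combination day 26 replicate 2 or day 5 replicate 2 (0.33 and 0.22). In WT SLFN13 fell by 0.66 ± 0.15 with BMN and by 0.42 ± 0.12 with the combination. The first was lost without BMN day 5 replicate 2 or day 26 replicate 1 (-0.47 and -0.54), and the second without combination day 5 replicate 2 or day 26 replicate 1 (-0.36 and -0.36). SLFN12 with BMN in WT, at 0.25 ± 0.10, passed only without BMN day 26 replicate 2 (0.34, adjusted p = 0.0366), and SLFN12L with the combination in KO, at -1.11 ± 0.81, only without combination day 26 replicate 2 (-5.74, adjusted p = 0.0117), whose 6 counts were then set aside against 0 in the other library.

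Under treatment the group means of the lines kept the order they had at day 0 for the 4 genes that differed there. Averaged over the 3 days, SLFN11 was lower in KO than in WT by log2 -0.70 ± 0.04 with the combination, -0.84 ± 0.04 with DAC and -0.76 ± 0.04 with BMN, and at no treatment did KO and WT libraries overlap. SLFN5 was lower by -1.61 ± 0.05, -1.23 ± 0.05 and -0.84 ± 0.05, and SLFN12 by -0.51 ± 0.06, -0.45 ± 0.06 and -0.34 ± 0.06. SLFN13 was higher in KO, by 2.29 ± 0.08 with BMN but by 0.76 ± 0.07 with the combination and 0.64 ± 0.07 with DAC. At day 5 of the combination the SLFN13 libraries of the lines overlapped, at 17.86 and 14.56 CPM in KO and 13.34 and 14.59 CPM in WT. SLFN12L was lower in KO with the combination (-2.04 ± 0.45, adjusted p = 0.000274) and with DAC (-2.21 ± 0.42, adjusted p = 4.21e-05), and with the combination it was at -3.14 without KO combination day 16 replicate 2 and -3.58 without KO combination day 26 replicate 2. With BMN SLFN12L did not pass (-0.13 ± 0.47). All 5 genes passed with the combination and with DAC and 4 with BMN, where 49.4%, 49.2% and 48.1% of all genes passed.

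The response averaged over the 3 days differed between the lines for SLFN5 and SLFN13, and no difference passed for SLFN11, SLFN12 and SLFN12L. In a test of the response in KO minus that in WT, averaged over the 3 days, SLFN13 stood at log2 -1.42 ± 0.15 for the combination (adjusted p = 7.8e-09) and -1.54 ± 0.15 for DAC (adjusted p = 2.29e-09). SLFN5 stood at -0.82 ± 0.10 for the combination (adjusted p = 9.58e-08) and -0.44 ± 0.10 for DAC (adjusted p = 0.00207), and the DAC value did not pass without KO control replicate 1 (-0.28, adjusted p = 0.11). SLFN11 was at -0.02 ± 0.08 for the combination, -0.15 ± 0.08 for DAC and -0.07 ± 0.08 for BMN, and SLFN12 at 0.11 ± 0.12, 0.17 ± 0.12 and 0.27 ± 0.12, none of which passed. For SLFN11 under the combination the mean over days covers values that went opposite ways, -0.59 in KO and -0.14 in WT at day 5 but -0.27 in KO and -0.60 in WT at day 26, so it does not show that the lines responded alike. The differences on single days were not tested. SLFN12L, on few counts, was at -1.57 ± 1.17 for the combination, -1.74 ± 1.16 for DAC and 0.34 ± 1.08 for BMN (adjusted p = 0.432, 0.418 and 0.956). For BMN no Schlafen gene passed by edgeR, nor by DESeq2, which gave SLFN12L no adjusted p, and SLFN12 alone had an unadjusted p below 0.05. Of all tested genes 14.2% passed for the combination, 8.82% for DAC and 1.23% for BMN. The difference between DAC and BMN, which uses no control, gave SLFN13 at -1.65 ± 0.10 (adjusted p = 1.5e-14), SLFN5 at -0.39 ± 0.07 (adjusted p = 3.69e-05) and SLFN12L at -2.08 ± 0.64 (adjusted p = 0.0166), where 23.3% of all genes passed.

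Ranked over the 20 groups, SLFN5 was highest in WT cells at day 16 of the combination (303 ± 10.9 CPM) and lowest in KO cells at day 26 of BMN (33.8 ± 2.64 CPM; SD, n = 2 each). Its 5 highest groups were all WT groups with DAC or the combination, and none of them overlapped its neighbour in the order. For SLFN11 the 9 highest groups were all WT. It was highest at day 16 of BMN in WT (156 ± 1.16 CPM), next came WT control, and it was lowest at day 16 of DAC in KO (60.6 ± 2.92 CPM), whose libraries overlapped those of the combination on that day in KO (60.9 ± 0.403 CPM). WT cells at day 16 of the combination (92.5 ± 4.66 CPM) overlapped KO controls (95 ± 8.16 CPM). SLFN12 ran from 36.7 ± 2.11 CPM on day 16 of the combination in WT to 14.4 ± 1.48 CPM in KO control, with its 5 highest groups overlapping one after the other. For SLFN13 the 9 highest groups were KO, led by day 16 of BMN (27.7 ± 0.377 CPM), and the 4 lowest were WT control and WT BMN, down to 4.10 ± 0.493 CPM on day 26. SLFN12L groups overlapped their neighbours at 18 of the 19 steps.

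Across the 20 group means of log2 CPM, SLFN5 and SLFN12 had a Pearson r of 0.89 and SLFN11 and SLFN13 one of -0.78, while SLFN5 and SLFN11 had 0.27. These are descriptions over groups that share lines, drugs and days. The genes whose pattern was nearest to SLFN11 among genes reaching 5 CPM were GPR160 (r = 0.978), KRT10-AS1 (0.964) and MIEN1 (0.962). For SLFN5 they were PLCG2 (0.952), IL1R1 (0.951) and DDO (0.945), for SLFN13 they included TFCP2 (0.939) and SHISAL1 (0.931), and for SLFN12 SMCR8 (0.940), ZNF234 (0.936) and ZNF846 (0.931). SLFN12L, with few counts, reached 0.825 at most (B4GALNT2).

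The genes around the cluster were lower in untreated KO cells too. Of 15 listed neighbours on chromosome 17, 10 were tested, and 7 of these were lower and 0 higher in KO than in WT controls, with a median of log2 -0.48 against -0.01 over all genes; 13.9% of all genes were lower. Named after their values were seen, they included LIG3, a DNA ligase (-0.56 ± 0.07), RAD51D, a recombination gene (-0.39 ± 0.10), and AP2B1, an adaptor of endocytosis (-0.62 ± 0.05). In the same comparison SLFN11 stood at -0.68, SLFN5 at -0.79 and SLFN12 at -0.62, while SLFN13 stood at 2.18. The labels do not give the copy number of this region, and its part in these differences was not tested. With DAC at day 26 most of the neighbours did not move as SLFN5 and SLFN12 did. In KO 2 rose and 1 fell, with a median of -0.02, where 26.3% of all genes rose and 20.9% fell. In WT 3 rose and 1 fell, with a median of 0.01, where 18.7% of all genes rose and 13.2% fell. AP2B1 changed by 0.26 ± 0.05 in KO and 0.23 ± 0.05 in WT, NLE1, a ribosome assembly gene, by -0.51 ± 0.12 in KO and -0.10 ± 0.11 in WT, where it did not pass. CCT6B, a chaperonin gene, rose in KO (0.91 ± 0.36, adjusted p = 0.0376) and was at -0.08 ± 0.24 in WT, which did not pass, and TMEM132E, at 0 counts in WT controls, reached 0.641 CPM in WT, at least 4.18-fold above the floor of 3 counts in each control library.

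**Figure D5:**
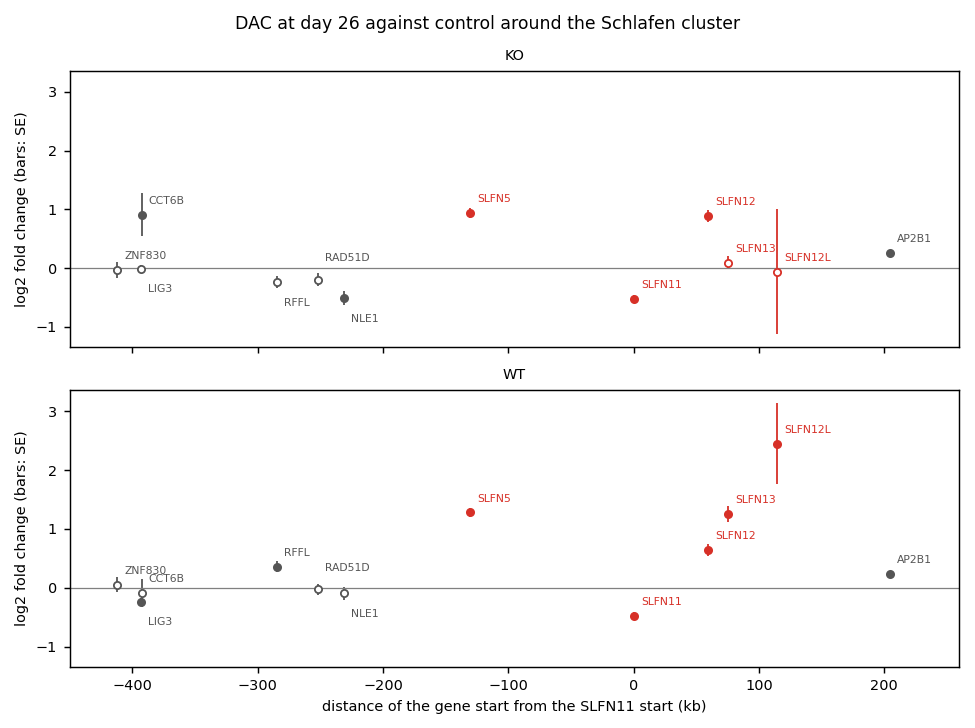
Log2 fold change of DAC at day 26 against control, with SE, by distance of each gene's start from that of SLFN11 in kb; Schlafen genes in red, 7 of the 10 tested neighbours in grey, filled points passed; KO above, WT below. TMEM132E and RASL10B, with few counts, are among those left out. SLFN5 (0.94), the neighbour CCT6B (0.91) and SLFN12 (0.89) lie near the top of the KO panel. SLFN13 (0.09), SLFN12L (-0.06) and SLFN11 (-0.52) lie lower there, and the median of the 10 tested neighbours is -0.02.

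Among 14 tested genes of type I interferon signalling, 10 rose and 2 fell with DAC at day 26 in KO (median log2 1.83), where 26.3% of all genes rose and 20.9% fell. In WT 10 rose and 1 fell (median 1.36), where 18.7% of all genes rose and 13.2% fell. OAS1, which makes the activator of RNase L, stood at 203 CPM with DAC against 0.219 CPM in KO control (log2 9.82 ± 0.21) and at 179 against 3.70 CPM in WT (5.59 ± 0.14). IFI44L rose by 7.12 ± 0.18 in KO and 6.32 ± 0.18 in WT, MX1, an antiviral GTPase, by 7.08 ± 0.13 and 6.25 ± 0.12, and IFIT1, which binds foreign RNA, by 4.77 ± 0.09 and 4.15 ± 0.09. With BMN at day 26 the list had 1 higher and 9 lower in KO, where 15.6% of all genes were higher and 17.5% lower, and 0 higher and 2 lower in WT, where 12.0% were higher and 11% lower.

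PDE3A, the partner of SLFN12, was higher than control with DAC at day 26 but not at day 5. With DAC at day 5 it was at 0.489 CPM against 0.491 CPM in control in KO and at 0.612 against 0.463 CPM in WT, and neither passed. At day 26 it stood at 7.14 CPM with DAC against 0.491 CPM in KO control (log2 3.84 ± 0.34, adjusted p = 4.46e-11) and at 3.97 against 0.463 CPM in WT (3.09 ± 0.35, adjusted p = 1.68e-08). In KO, BMN gave 0 CPM at day 5, at least 3.14-fold lower than control by the floor of 3 counts a library (adjusted p = 0.000783), 0.124 CPM at day 16 (log2 -1.93 ± 0.64, adjusted p = 0.026) and 0.292 CPM at day 26, which did not pass. In WT it gave 0.647, 0.635 and 0.722 CPM on those days, and none passed. PDE3B was not tested.

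Of 16 genes of replication stress that act with SLFN11, 3 rose and 7 fell with DAC at day 26 in KO (median log2 -0.14), and 3 rose and 2 fell in WT (median 0.05). Of all genes 47.2% passed in KO and 31.9% in WT, so the WT count was near the share of all genes. CDT1, the licensing factor that SLFN11 degrades, fell by 1.21 ± 0.15 in KO and 0.58 ± 0.15 in WT. CUL4B, the ubiquitin ligase subunit used for that, rose in KO (0.90 ± 0.16) and was at 0.27 ± 0.15 in WT, and the checkpoint kinase gene ATR rose in KO (0.79 ± 0.12) and was at 0.14 ± 0.12 in WT, neither of which passed in WT. CLSPN, the ATR adaptor claspin, rose in both (0.34 ± 0.09 in KO and 0.59 ± 0.09 in WT). Among 16 genes of the PARP inhibitor response 6 rose and 5 fell in KO (47.2% of all genes passed) and 2 rose and 2 fell in WT, a share below the 31.9% of all genes. MAD2L2 of the shieldin complex fell in both (-0.73 ± 0.11 in KO and -0.50 ± 0.11 in WT), PALB2 rose in both (0.61 ± 0.09 in KO and 0.47 ± 0.09 in WT), and BRCA2 rose in KO (1.01 ± 0.17) and was at 0.02 ± 0.17 in WT. SHLD3 was at 1.26 ± 0.46 in KO, which passed, and 1.11 ± 0.45 in WT, which did not (adjusted p = 0.0574).

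Among 14 described regulators of SLFN11, 2 rose and 4 fell with DAC at day 26 in KO, a share near the 47.2% of all genes, and 6 rose and 2 fell in WT, where 31.9% of all genes passed. FLI1, an ETS factor, had 0 counts in the controls of both lines and reached 1.39 CPM in KO and 0.961 CPM in WT, at least 8.47-fold and 6.27-fold above the floor of 3 counts a library. SPI1, an ETS factor of blood cells, was also at 0 in the controls of both lines. With DAC it had 0.190, 0.241 and 0 CPM on days 5, 16 and 26 in KO and 0.359, 0.584 and 0.344 CPM in WT, and all but the KO value of day 26 passed. The KO values of days 5 and 16 were near the floor of 3 counts a library, at least 1.16-fold and 1.47-fold above it. In WT the values were at least 2.34-fold, 3.81-fold and 2.24-fold above it on days 5, 16 and 26. The histone methyltransferase genes SUV39H1 (-0.85 ± 0.11 in KO and -0.36 ± 0.11 in WT) and KMT5C (-0.55 ± 0.17 in KO and -0.92 ± 0.18 in WT) fell in both lines.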

How the data were processed

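RNA was total RNA of cultured 786-0 cells, made into libraries with the KAPA RNA HyperPrep kit, per the labels' protocols. The authors deposited raw counts of reads per gene, made with featureCounts 1.5.0-p1 on exons of the Ensembl 104 annotation of GRCh38, with strand setting 1 and a mapping quality of at least 20, per the file headers. Trimming with Trimmomatic and work in Partek are named in the submitters' processing notes. All 40 count columns were matched to labelled samples. The limit on mapping quality leaves out reads of uncertain placement, which can lower genes with shared sequence, and reads marked as duplicates were skipped.

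Genes were tested in R 4.3.3 with edgeR 4.0.16 (quasi-likelihood test, TMM scaling, filter at a minimum count of 10 and a total of 15). A single fit held the 40 libraries with a mean for each of the 20 groups, leaving 20 residual degrees of freedom, and 44 contrasts were drawn from it. P-values were adjusted over the 22527 genes tested, within each contrast, by Benjamini-Hochberg, and a gene passed below 0.05. CPM are counts over the scaled library sum of tested genes. Levels of different genes were divided by exon length. Alternatives were DESeq2 1.42.0, its size factors, no filter, a fit of the compared libraries alone, a replicate block and each library left out under the same filter. The steps were tested on simulated data.

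The members and the gene lists were chosen with earlier results of these data known. The 5 members were always named. From each list up to 4 genes were named, those passing with DAC at day 26 in either line with the largest mean change over both lines, and for each member the 3 genes with the nearest pattern; some genes that these rules name are not reported here. SLFN12L rests on 0 to 22 counts a library. Intervals are given as SE and cover the spread between libraries.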

Additional observations from a re-analysis of the deposited data

Results flagged for a closer look

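For SLFN5 and SLFN13 the response to DAC and to the combination differed between the lines by a test of the difference itself, and for SLFN5, SLFN13 and SLFN12L so did the difference between DAC and BMN. All differences are log2, KO minus WT, averaged over the 3 days.

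The response of SLFN13 to the combination differed by -1.42 ± 0.15 and that to DAC by -1.54 ± 0.15. Averaged over the days, SLFN13 had 19.9 CPM in KO against 11.8 CPM in WT with the combination, 23.2 CPM in KO against 14.9 CPM in WT with DAC, and 24.0 CPM in KO controls against 5.30 CPM in WT controls. The difference between DAC and BMN, free of the day 0 controls, was -1.65 ± 0.10. Of the SLFN13 transcript windows of 50 bases, 7.0% occur in other genes, and their part in this result was not tested.

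The response of SLFN5 to the combination differed by -0.82 ± 0.10 and that to DAC by -0.44 ± 0.10, of which the second was lost without KO control replicate 1 (-0.28, adjusted p = 0.11 by edgeR). The difference between DAC and BMN was -0.39 ± 0.07. SLFN12L gave -2.08 ± 0.64 for DAC against BMN (adjusted p = 0.0166 by edgeR), on 1 to 5 counts a library in KO and 1 to 22 in WT.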

How the results depend on the processing

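With 2 libraries a group, SEs rest on a spread shared between groups, and 30 of the 117 called results were lost in at least 1 fit that left out a library, while 87 were kept in every such fit. No called result changed sign under any alternative run, and 35 results that had not passed did. The fits without a library kept the filter of the full set, a choice made after seeing the data. Depth limits SLFN12L, at 0 to 22 counts.

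SLFN11 in WT at day 5 of DAC was at -0.25 (adjusted p = 0.164) when only the 4 compared libraries were fitted, and at day 5 of the combination in WT it lay between -0.20 and -0.072 without each library in turn, passing without WT combination day 5 replicate 1. With DESeq2's size factors, the combination against DAC at day 16 in KO gave -0.014 for SLFN11, and day 26 against day 5 gave SLFN5 at -0.027 with the combination in KO and -0.0081 with BMN in WT. DESeq2 gave -0.014, -0.027 and -0.0082 for the same results. Without a filter SLFN13 with DAC at day 16 in KO was at -0.0084 and SLFN11 with the combination against DAC at day 16 in KO at -0.019. In the compared libraries alone SLFN13 with BMN in KO was at -0.0033 for day 26 against day 5. The cause of these shifts was not tested.

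The following are the lowest and highest log2 values, without each library in turn, of results that had not passed and changed sign. For SLFN5 these ranges were -0.20 to 0.092 (BMN against control day 26 WT), -0.12 to 0.18 (BMN against control day 5 KO), -0.23 to 0.063 (BMN against control day 5 WT) and -0.30 to 0.0033 (DAC against control day 5 KO). SLFN5 also ran from -0.017 to 0.073 (day 26 against day 5 BMN WT) and -0.21 to 0.11 (response to BMN KO minus WT). For SLFN11 these ranges were -0.15 to 0.0302 (BMN against control day 16 KO), -0.041 to 0.058 (combination against DAC day 16 KO), -0.056 to 0.0045 (day 26 against day 5 BMN WT) and -0.16 to 0.018 (response to BMN KO minus WT). SLFN11 also ran from -0.10 to 0.075 (response to combination KO minus WT). For SLFN12 these ranges were -0.048 to 0.17 (BMN against control day 5 WT), -0.12 to 0.025 (combination against DAC day 26 WT) and -0.18 to 0.098 (day 26 against day 5 combination WT). For SLFN12L these ranges were -0.055 to 1.40 (BMN against control day 16 WT), -1.62 to 0.76 (BMN against control day 5 WT), -4.19 to 0.058 (combination against control day 16 KO) and -4.18 to 1.43 (combination against control day 26 KO). SLFN12L also ran from -0.59 to 0.11 (combination against DAC day 16 WT), -4.13 to 1.49 (combination against DAC day 26 KO), -0.18 to 0.27 (DAC against BMN day 5 KO) and -0.057 to 1.45 (DAC against control day 16 KO). SLFN12L also ran from -0.999 to 0.88 (DAC against control day 26 KO), -0.40 to 0.39 (KO against WT BMN), -1.41 to 0.11 (KO against WT control day 0) and -0.24 to 1.27 (response to BMN KO minus WT). For SLFN13 these ranges were -0.32 to 0.073 (BMN against control day 16 WT), -0.11 to 0.027 (BMN against control day 26 KO), -0.12 to 0.021 (BMN against control day 5 KO) and -0.14 to 0.0022 (combination against control day 16 KO). SLFN13 also ran from -0.058 to 0.079 (DAC against control day 16 KO), -0.037 to 0.21 (DAC against control day 26 KO), -0.043 to 0.055 (day 26 against day 5 BMN KO) and -0.097 to 0.29 (response to BMN KO minus WT).

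The replicate numbers did not pair the libraries. Of 190 pairs of groups, 10 had deviations of same-numbered libraries that correlated above 0.1, in a range of -0.17 to 0.24. The replicate block changed no call on a Schlafen gene, and counts of called genes moved by 0.952 to 1.25 times. Counts of called genes moved by more than 1.5 times in 13 of 44 comparisons with only the compared libraries, mostly WT comparisons, such as 3181 for KO against WT at day 0, where 6136 passed in the whole set. They moved that much in 3 comparisons without a filter, 2 with DESeq2 and 45 of 256 fits without a library. BMN in WT held the largest of them. At day 16, 154 genes passed in the whole set, 3593 without WT control replicate 1, 11 without WT control replicate 2, 7 and 8 without either BMN library, 0 with only the compared libraries, 1348 without a filter and 954 with DESeq2. At day 5, 42 passed in the whole set, 15 to 79 without each library in turn, 0 with only the compared libraries, 64 without a filter and 71 with DESeq2.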
